A study of Ovis aries with 9 samples.

Results

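The collagen genes were the rows of the sheep ovary count table whose symbol is COL, a number, A and a number, and 39 of the 27174 rows met this rule. The table covers ovaries of 9 ewes, each with its own library. Libraries D4, D5 and D6 came from Dorset ewes, the low-fecundity controls labelled wild type. The others came from Small Tail Han ewes, namely W1, W2 and W4 from ewes with FecB genotype BB, written Han BB, and W6, W7 and W8 from ewes with genotype ++, written Han ++, so that each group had 3 ewes. FecB is the fecundity mutation in BMPR1B, a receptor for bone morphogenetic proteins. All 9 were adult ewes whose estrus had been synchronised with fluorogestone acetate sponges and pregnant mare serum gonadotropin, and ovaries were collected once a further, spontaneous estrus had followed. Han ++ against Dorset differs by breed, Han BB against Han ++ by the FecB genotype, and Han BB against Dorset by both, so the last comparison cannot tell breed and genotype apart.

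Collagens are secreted proteins in which alpha chains wind around each other into a helix. The fibrillar chains form the cable-like fibrils that give tissue its tensile strength, the type IV chains form the sheet-like network of basement membranes, and the FACIT chains (fibril-associated collagens with interrupted helices) decorate the surface of fibrils. Type VI chains form beaded filaments around cells, type XV and XVIII chains (multiplexins) sit at basement membranes, and a few collagens span the cell membrane. In the ovary, fibrillar collagen fills the cortex, the tunica albuginea and the theca externa, while type IV collagen lies under the granulosa layer of each follicle and around blood vessels. Follicle growth, ovulation and formation of the corpus luteum all involve breakdown and renewal of this matrix.

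Total counts were between 10803913 and 20992535 reads per library, and the group medians were 17990657 for Dorset, 15848460 for Han BB and 19965237 for Han ++. No pair of libraries agreed within sampling noise. W4 and D6 stood apart from the other 7 libraries, since both lay above or both lay below all 7 others for 35.8% of the 16871 tested genes. The ovarian markers FSHR, the FSH receptor of granulosa cells, and INHA, the inhibin alpha chain, were read in all 9 libraries, at 5.42 to 14.4 CPM and 13.6 to 95.2 CPM. FOXL2, CYP19A1 and the endothelial TEK had no row under their symbols and were not analysed here. OVGP1, the glycoprotein secreted by oviduct epithelium, was also read in all 9, at 371 to 1824 CPM. CPM here means reads scaled to the library's total on the tested genes with TMM factors, and compares 1 gene between libraries. It does not compare genes with each other, because long transcripts collect more reads. In whole tissue, fewer cells of a type and less RNA per cell cannot be told apart.

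The 39 rows held 1.00%, 1.19% and 0.863% of all counted reads in the Han BB libraries W1, W2 and W4, 1.21%, 1.54% and 1.51% in the Han ++ libraries W6, W7 and W8, and 0.932%, 1.49% and 0.986% in the Dorset libraries D4, D5 and D6. The Han ++ libraries were all above the Han BB libraries in this share, whereas the Dorset libraries spanned both. The 95% Wilson intervals extended at most 0.00727 percentage points to either side and cover counting error only, since PCR reads are not independent molecules. 3 expressed collagens were listed by gene number and not by symbol, namely COL1A2, COL3A1 and COL8A1, and nearly all COL5A1 reads lay in a row whose symbol carries a numeric suffix. With the 6 rows of this kind, which also include suffixed rows of COL4A2 and COL6A2, the shares were 1.45% to 1.92% in Han BB, 2.16% to 2.85% in Han ++ and 1.49% to 2.84% in Dorset. COL6A3, COL6A4 and COL26A1 were not analysed here.

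**Figure D1:**
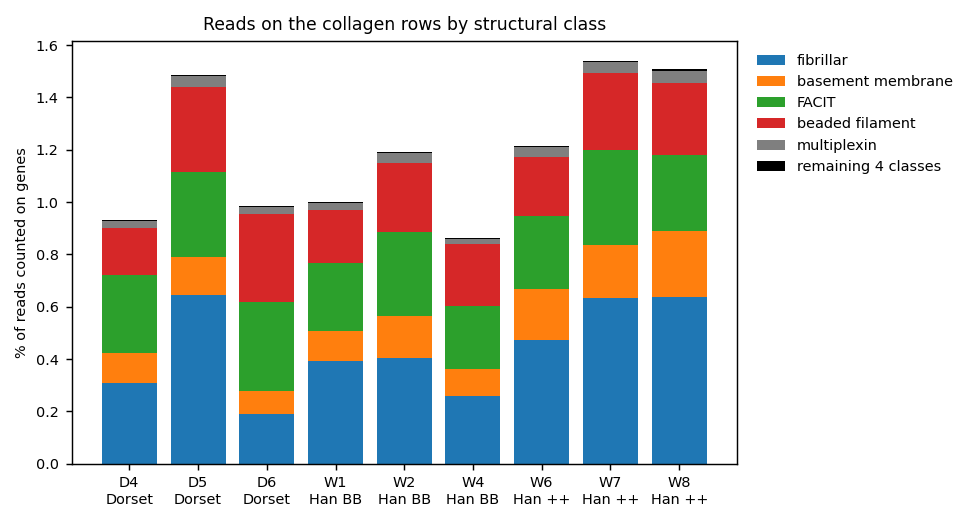
Share of all counted reads that fell on collagen rows, in percent, for each of the 9 libraries, divided by structural class. Shares depend on transcript length and compare libraries, not classes, and the totals of the 39 rows run from 0.863% in W4 to 1.54% in W7. The fibrillar class leaves out the gene-number rows of COL1A2 and COL3A1 and the suffixed COL5A1 row.

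Of the 39 rows, 37 passed the filter on low counts and were tested. The 2 others were COL20A1, a FACIT chain with no read in any library, and the row named COL5A1, with at most 31 reads. 12 rows had under 100 reads in every library. By class there were 9 fibrillar rows, 6 basement membrane rows, 10 FACIT rows, 4 beaded filament rows, 4 transmembrane rows, 2 network rows, 2 multiplexin rows, 1 anchoring fibril row and 1 other row. Among the reads on the 39 collagen rows, the fibrillar class took 19.3% to 43.4%, with its lowest shares in D6 (19.3%) and W4 (29.9%). These shares leave out the suffixed COL5A1 row and the gene-number rows of COL1A2 and COL3A1, all fibrillar. COL1A2 and COL3A1 held 582002 and 728765 reads over the 9 libraries, beside 551673 for COL1A1. The FACIT class took 19.1% to 34.4%. The beaded filament class took 18.3% to 34.1%, with its highest shares in D6 (34.1%) and W4 (27.3%). The basement membrane share was 16.1%, 13.2% and 16.7% in Han ++, 11.6%, 13.4% and 11.9% in Han BB and 12.4%, 9.86% and 9.03% in Dorset. Within the 39 rows the Han ++ libraries were all above the Dorset libraries in this share. With the 6 further rows in the total, W7 (42731 of 598325 reads) was no longer above D4 (13524 of 178327 reads).

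No collagen gene was called in any comparison, where a call in edgeR's quasi-likelihood test needs a fold change over 1.5 together with an adjusted p under 0.05. The background was equally low, with calls for 0% of all tested genes in Han BB vs. Dorset, 0.00593% (1 gene) in Han ++ vs. Dorset, 0% in Han BB vs. Han ++ and 0% in Han vs. Dorset, where Han is the mean of both Han groups. DESeq2 and limma also called no collagen gene, although DESeq2 called 38, 65, 2 and 88 genes over the whole table in these comparisons. At an unadjusted p under 0.05, edgeR had 4 of the 37 members in Han BB vs. Dorset (10.8%, all tested genes 4.99%), 5 in Han ++ vs. Dorset (13.5%, all tested genes 5.27%), 1 in Han BB vs. Han ++ (2.7%, all tested genes 1.97%) and 6 in Han vs. Dorset (16.2%, all tested genes 6.12%). Without W4 and D6 these counts were 3, 4, 1 and 3 of 38 (7.89%, 10.5%, 2.63% and 7.89%), beside 7.37%, 8.87%, 3.41% and 9.56% of all genes. The comparisons share groups, so their counts are not independent.

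The direction of the fitted differences was uneven. In Han BB vs. Dorset 28 of 37 members had a log2 fold change below 0, beside 50.6% of all tested genes, and the median was -0.28, beside -0.0058 for all. These 28 included COL2A1, COL11A2, COL9A1, COL9A2, COL19A1, COL22A1, COL10A1, COL23A1 and COL25A1, each with under 100 reads in every library. COL8A2, which also had under 100, was at 0.04. In Han BB vs. Han ++ 28 of 37 were below 0, beside 46.6% of all, again with a median of -0.28, beside 0.04 for all. Of the low rows just named, COL11A2 and COL8A2 were above 0 here. In Han ++ vs. Dorset 21 of 37 were below 0, beside 55.9% of all, and the median was -0.12, beside -0.06. In Han vs. Dorset 24 of 37 were below 0, beside 54.5% of all, with a median of -0.14, beside -0.04. Without W4 and D6 the counts below 0 in this order of comparisons were 28, 33, 21 and 26 of 38, beside 54.9%, 53.2%, 55.8% and 56.1% of all genes. These medians describe the list and were not tested, and collagens that are read in the same cells are not independent of each other.

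**Figure D2:**
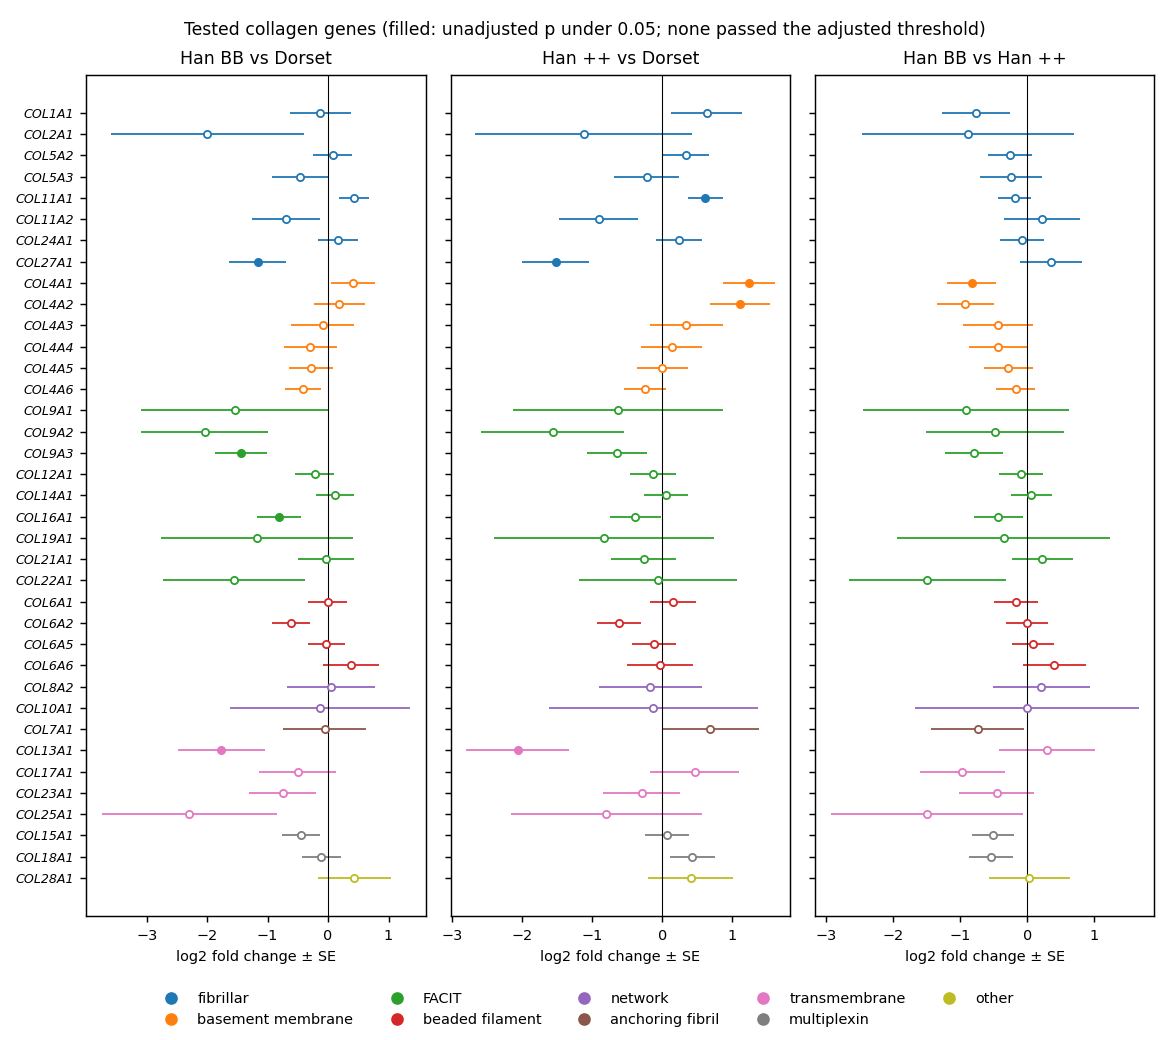
Fitted log2 fold changes of the 37 tested collagen genes by structural class in the pairwise comparisons, with lines for the standard error and filled points for an unadjusted p under 0.05. The basement membrane genes lie mostly above 0 in Han ++ vs. Dorset and all 6 lie below 0 in Han BB vs. Han ++, and no gene passed the adjusted threshold.

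Complete separation of groups was counted as well. In Han BB vs. Dorset the 3 values of one group lay entirely to one side of the other for 1 of 37 members, beside 8.79% of all tested genes. That member was COL4A6, read at 109, 162 and 124 CPM in Dorset and at 107, 99.2 and 88.9 CPM in Han BB. In Han ++ vs. Dorset 6 of 37 members were separated, beside 11.1% of all, with COL4A1, COL4A2, COL11A1 and COL18A1 higher and COL27A1 and COL13A1 lower in Han ++. In Han BB vs. Han ++ 7 of 37 were separated, beside 9.38% of all, and in all 7 the Han BB values were the lower ones, beside 4.59% of all tested genes separated in that direction. These were COL1A1, COL4A1, COL4A2, COL9A3, COL15A1, COL17A1 and COL18A1. In Han vs. Dorset no member was separated, beside 3.76% of all.

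COL1A1 encodes the alpha 1 chain of type I collagen, the main fibril protein of stroma. It was read at 3251, 3352 and 1704 CPM in the Han BB libraries W1, W2 and W4, at 3676, 5066 and 5382 CPM in the Han ++ libraries W6, W7 and W8, and at 2907, 5082 and 1104 CPM in the Dorset libraries D4, D5 and D6. All Han ++ values were above all Han BB values, and the lowest values of all were those of D6 and W4. The log2 fold change in Han BB vs. Han ++ was -0.77 (SE 0.51, 95% interval -1.88 to 0.35, adjusted p = 0.999), and in Han ++ vs. Dorset it was 0.64 (SE 0.50, 95% interval -0.48 to 1.75). Both intervals held negative and positive values, so the direction of neither difference was resolved in this fit.

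COL1A2, the partner chain of COL1A1 in type I collagen, was followed through its gene-number row. It was read at 3247, 3259 and 2068 CPM in Han BB, 3755, 5610 and 4152 in Han ++ and 2947, 5702 and 1764 in Dorset. COL3A1, the chain of type III collagen that is mixed into fibrils of soft organs, was read at 4303, 3717 and 3936 CPM in Han BB, 4918, 6344 and 4661 in Han ++ and 3404, 6392 and 3099 in Dorset. For both rows, as for COL1A1, the Han ++ values were all above the Han BB values and Dorset overlapped both. D5 was the highest Dorset library for each of the 3 genes.

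**Figure D3:**
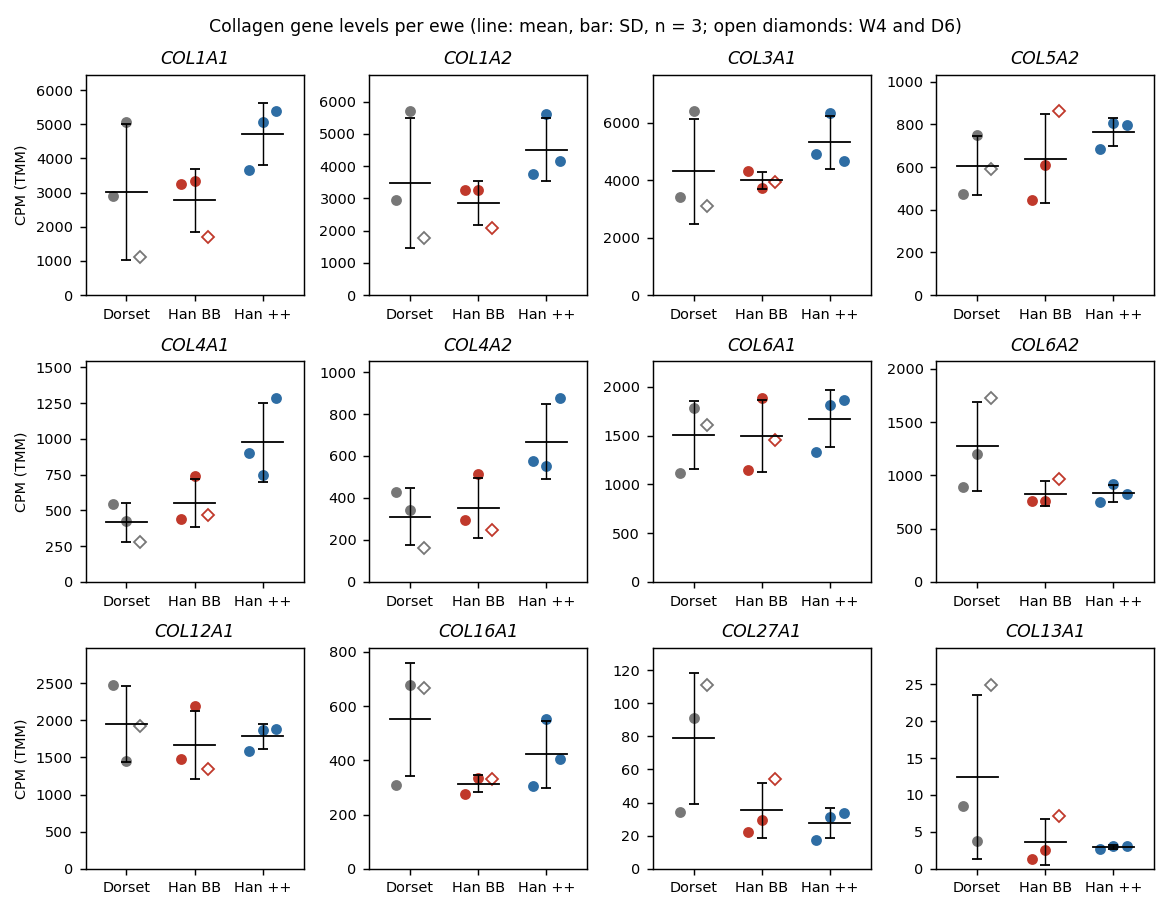
CPM in each library for named collagen genes, with a point per ewe (open diamonds for W4 and D6), a line for the group mean and bars for the SD of 3 ewes, on a separate linear axis for each gene. COL4A1 and COL4A2 are highest in the 3 Han ++ ewes, and COL27A1 and COL13A1 are lowest on average in Han ++ with wide spread among the Dorset ewes.

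The ratio of COL1A1 to COL1A2 reads was 1.00, 1.03 and 0.824 in Han BB, 0.979, 0.903 and 1.30 in Han ++ and 0.986, 0.891 and 0.625 in Dorset. Its lowest values were again those of D6 and W4. The ratio of COL1A2 to COL3A1 was 0.755 to 0.892 in the other 7 libraries, 0.525 in W4 and 0.569 in D6. The ratio of COL1A1 to COL3A1 was 0.433 in W4 and 0.356 in D6, below each of the others. A ratio within a library does not depend on its depth or scaling, and both type I chains were lower relative to COL3A1 in W4 and D6 than in the others. These 2 libraries belong to different groups.

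**Figure D4:**
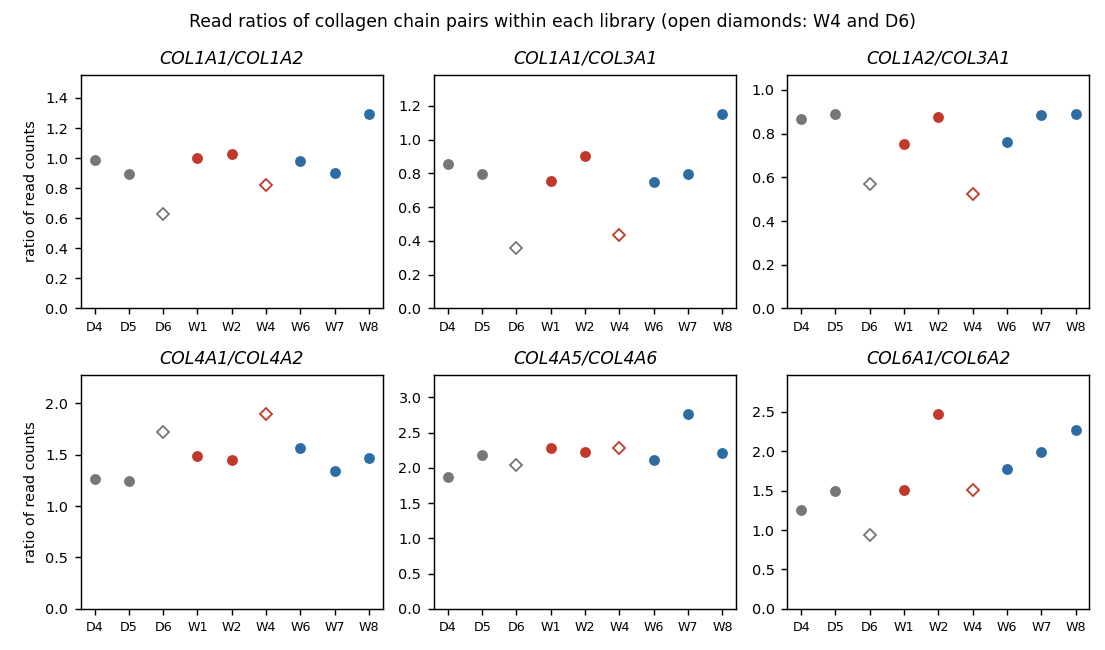
Ratios of reads between pairs of collagen chains, within each library, with open diamonds for W4 and D6. The COL1A1 to COL1A2 ratio is lowest in D6 (0.625) and W4 (0.824). The COL6A1 to COL6A2 ratio is higher in all 6 Han libraries than in the 3 Dorset libraries, by a narrow margin. D5 is at 1.49 beside 1.51 in W1 and W4, and no test was made.

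Type V collagen starts and limits the width of type I fibrils. The suffixed COL5A1 row was read at 239.6, 399.5 and 210.0 CPM in Han BB, 290.0, 409 and 656 in Han ++ and 305, 522 and 195 in Dorset, and W4 and D6 were the lowest of their groups. COL5A2, its partner chain, was read at 447, 609 and 862 CPM in Han BB, 687, 806 and 799 in Han ++ and 475, 751 and 592 in Dorset. In W4, therefore, COL5A2 was at its highest of the 9 libraries while the suffixed COL5A1 row was near its lowest. The ratio of the COL5A1 row to COL5A2 was 0.244 in W4 and 0.330 in D6, and between 0.422 and 0.821 in the others. The COL5A2 groups overlapped, with a log2 fold change of 0.33 in Han ++ vs. Dorset (SE 0.32, 95% interval -0.38 to 1.05).

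COL27A1, a fibrillar chain best known from cartilage, was read at 22.1, 29.6 and 54.1 CPM in Han BB, 17.4, 31.5 and 33.8 in Han ++ and 34.5, 91.0 and 111 in Dorset. D5 and D6 were above all 6 Han libraries, whereas D4 lay within the Han BB range and just above the highest Han ++ value. The log2 fold change was -1.52 in Han ++ vs. Dorset (SE 0.48, 95% interval -2.57 to -0.47, adjusted p = 0.737) and -1.16 in Han BB vs. Dorset (SE 0.47, adjusted p = 0.975). In Han vs. Dorset it was -1.34 (SE 0.39, 95% interval -2.20 to -0.48, adjusted p = 0.534). The smooth muscle markers, all 6 of which were read (ACTA2, MYH11, DES, CNN1, TAGLN, ACTG2), summed to 4744 CPM in D4, 9849 CPM in D5 and 10138 CPM in D6, to 4870 to 7579 CPM in Han BB and to 5297 to 8626 CPM in Han ++. The excess in D5 and D6 lay mostly in MYH11 (5320 and 5940 CPM), while ACTA2 in these 2 libraries (2007 and 1846 CPM) was below W2 (2948 CPM) and W7 (2352 CPM). The part of these markers in the COL27A1 values was not tested.

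COL11A1, which joins type V chains in fibrils, was read at 45.4, 66.2 and 68.0 CPM in Han BB, 70.4, 64.0 and 69.6 in Han ++ and 41.8, 48.5 and 42.8 in Dorset. The Han ++ values were tightly grouped and all above Dorset, with a log2 fold change of 0.61 (SE 0.25, 95% interval 0.07 to 1.16, adjusted p = 0.891). COL24A1 and COL5A3 were read at 12.9 to 28.2 CPM and 13.1 to 40.5 CPM over the 9 libraries, with overlapping groups. COL2A1, the main fibril chain of cartilage, had 0 to 55 reads per library and COL11A2 had 21 to 62 reads. Over the 8 tested fibrillar genes the median log2 fold change was -0.30 in Han BB vs. Dorset, 0.0099 in Han ++ vs. Dorset and -0.21 in Han BB vs. Han ++. These 8 include the low rows COL2A1 and COL11A2 and leave out COL1A2, COL3A1 and the suffixed COL5A1 row. In Han ++ vs. Dorset the rows left out were, in this order, at 0.38, 0.30 and 0.41 (SE 0.43, 0.35 and 0.44). They were at -0.28, -0.11 and -0.27 in Han BB vs. Dorset and at -0.66, -0.41 and -0.67 in Han BB vs. Han ++.

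The ubiquitous basement membrane heterotrimer is built from the COL4A1 and COL4A2 chains, whose genes lie next to each other in the sheep reference annotation and are known to share a promoter region. COL4A1 was read at 439, 742 and 469.7 CPM in the Han BB libraries, 899, 745 and 1285 CPM in the Han ++ libraries and 543, 425 and 278 CPM in the Dorset libraries. The 3 Han ++ values were the highest of the 9, although the margin between W7 and the Han BB library W2 was narrow. The log2 fold change in Han ++ vs. Dorset was 1.23 (SE 0.37, 95% interval 0.42 to 2.05), a 2.35-fold higher level, with an adjusted p of 0.690. DESeq2 gave an adjusted p of 0.0869 for this difference, the smallest of any collagen gene in that comparison. In Han BB vs. Han ++ it was -0.83 (SE 0.37, 95% interval -1.63 to -0.02, adjusted p = 0.999).

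COL4A2 was read at 295, 514 and 247 CPM in Han BB, 575, 554 and 876 in Han ++ and 428, 340.2 and 162 in Dorset, so that the Han ++ ewes were again above all others. Its log2 fold change was 1.11 in Han ++ vs. Dorset (SE 0.42, 95% interval 0.17 to 2.04, adjusted p = 0.891) and -0.92 in Han BB vs. Han ++ (SE 0.42, 95% interval -1.86 to 0.0061). The read ratio of COL4A1 to COL4A2 was 1.25 to 1.56 in 7 libraries, 1.90 in W4 and 1.72 in D6. The 4 endothelial markers with a row (PECAM1, CDH5, VWF, KDR), which mark cells that lay down much of this membrane, summed to 590 to 767 CPM in Han BB, 542 to 663 CPM in Han ++ and 632 to 738 CPM in Dorset. Of these markers VWF had its highest mean in Han ++ (211 CPM, beside 181 in Han BB and 162 in Dorset), whereas PECAM1, CDH5 and KDR had their lowest means there. The part of these markers in the COL4A1 and COL4A2 values was not tested.

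The other type IV chains, which form more restricted networks, had another pattern. COL4A5 was read at 244, 220.2 and 203 CPM in Han BB, 187, 423 and 199 in Han ++ and 204, 352 and 253 in Dorset, with its highest values in W7 and D5. COL4A6, its neighbour in the annotation, was read at 89.0, 153 and 90.3 CPM in Han ++, beside the Han BB and Dorset values given above, and W7 and D5 were again the highest 2. The read ratio of COL4A5 to COL4A6 stayed between 1.87 and 2.77, whereas the ratio of COL4A1 to COL4A5 varied more widely, with its lowest value in D6 and its highest values in the Han ++ libraries W8 (6.45) and W6 (4.80). COL4A3 was read at 9.59, 13.5 and 30.8 CPM in Han BB, 39.0, 13.8 and 20.0 in Han ++ and 10.5, 22.7 and 24.0 in Dorset. COL4A4, which assembles with COL4A3 and COL4A5 and lies beside COL4A3, was read at 30.1, 34.8 and 52.4 CPM in Han BB, 75.2, 42.7 and 40.1 in Han ++ and 20.6, 70.3 and 53.1 in Dorset. The ratio of COL4A3 to COL4A4 was 0.319 to 0.587. For COL4A3, COL4A4 and COL4A5 all groups overlapped.

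Across the basement membrane class, 5 of 6 genes had a higher fitted level in Han ++ than in Dorset (median log2 fold change 0.24) and 6 of 6 a lower one in Han BB than in Han ++ (median -0.43). Of all tested genes, 55.9% were below 0 in the former comparison and 46.6% in the latter. COL4A5, among the 5, was level at 0.0014, and both counts rest on the same Han ++ ewes. In Han BB vs. Dorset the class median was -0.19. The multiplexins, which tie basement membranes to the matrix beneath, likewise had lower values in Han BB than in Han ++. COL18A1, whose C-terminal fragment is endostatin, was read at 236, 290.1 and 145 CPM in Han BB, 296, 312 and 369.5 in Han ++ and 259, 290.1 and 177 in Dorset. COL15A1 was read at 39.6, 71.7 and 69.9 CPM in Han BB, 78.6, 88.7 and 91.1 in Han ++ and 57.8, 109 and 80.1 in Dorset. In both genes the Han ++ values were above all Han BB values, with log2 fold changes in Han BB vs. Han ++ of -0.54 for COL18A1 (SE 0.33, 95% interval -1.26 to 0.18) and -0.51 for COL15A1 (SE 0.32, 95% interval -1.21 to 0.18), and both adjusted p values were 0.999.

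Among the FACIT collagens, COL12A1 and COL14A1 had the highest CPM, both of which bind to type I fibrils. COL12A1 was read at 1479, 2190 and 1339 CPM in Han BB, 1593, 1871 and 1885 in Han ++ and 2476, 1454 and 1922 in Dorset. COL14A1 was read at 757, 746 and 871 CPM in Han BB, 744, 990.1 and 539 in Han ++ and 582, 828 and 776 in Dorset. The groups overlapped for both genes. COL16A1, which links fibrils to other matrix, was read at 276, 334 and 329 CPM in Han BB, 306, 554 and 406 in Han ++ and 309.6, 678 and 667 in Dorset. D4 was within the Han BB range while D5 and D6 were above all Han libraries, as for COL27A1, and the log2 fold change in Han BB vs. Dorset was -0.82 (SE 0.36, 95% interval -1.62 to -0.01, adjusted p = 0.975).

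COL9A3, a chain of the type IX collagen known from cartilage, was read at 11.2, 6.72 and 4.41 CPM in Han BB, 11.9, 12.7 and 14.3 in Han ++ and 10.5, 30.2 and 19.9 in Dorset. Han BB values were below all Han ++ values, and in Dorset D4 lay within the Han BB range. The log2 fold change was -1.44 in Han BB vs. Dorset (SE 0.44, 95% interval -2.40 to -0.48, adjusted p = 0.968), a 2.71-fold lower level, and -0.80 in Han BB vs. Han ++ (SE 0.43, 95% interval -1.74 to 0.15). COL21A1 was read at 9.58 to 26.6 CPM, with W4 and D6 the highest. In the FACIT class 8 of 9 tested genes were below 0 in Han BB vs. Dorset (median -1.18) and 8 of 9 in Han ++ vs. Dorset (median -0.39). Of all tested genes, 50.6% and 55.9% were below 0. The median in Han BB vs. Dorset was the value of COL19A1 (SE 1.59, 0 to 28 reads per library), while COL12A1 and COL14A1 were at -0.22 and 0.12. Several of the FACIT genes rested on few reads.

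Most of these low genes are chains that cartilage and other tissues use. COL9A1 had 0 to 35 reads per library, COL9A2 3 to 41, COL19A1 0 to 28 and COL22A1 3 to 42. COL25A1 had 0 to 39 reads. Of the 11 rows that had reads but under 100 in every library, 6 had their highest CPM in D4 (COL2A1, COL11A2, COL9A1, COL9A2, COL19A1 and COL25A1), 3 in W8 and 2 in W2. These were the libraries with the fewest total reads, at 10803913 in W8, 11716565 in D4 and 14545296 in W2. The part of depth in this pattern was not tested. The cartilage markers ACAN, SOX9, COMP and MATN3 were summed as well. Their summed CPM was 2.71 to 4.55 in Han BB, 4.52 to 10.4 in Han ++ and 6.20 to 9.15 in Dorset. The members differed in direction. MATN3 had its lowest mean in Han ++ (0.155 CPM, beside 0.489 in Han BB and 1.30 in Dorset). COMP had its highest mean in Han ++ (2.50 CPM, beside 0.586 in Han BB), with 4.51 CPM in W8. ACAN and SOX9 had their highest means in Dorset (3.02 and 2.21 CPM). Reads per library were few, at 0 to 33 for MATN3 and 5 to 49 for COMP. The part of these markers in the low collagen rows was not tested. 3 reads corresponded to 0.135 to 0.292 CPM, so small differences among the low collagen rows were not detectable at this depth.

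Type VI collagen, a filament that surrounds fibroblasts and smooth muscle cells, was represented by COL6A1, COL6A2, COL6A5 and COL6A6. COL6A1 was read at 1147, 1883 and 1455 CPM in Han BB, 1336, 1817 and 1869 in Han ++ and 1116, 1785 and 1607 in Dorset, so the groups lay over each other, and the log2 fold change in Han vs. Dorset was 0.07 (SE 0.28, 95% interval -0.55 to 0.70). COL6A2, its neighbour and obligate partner, was read at 761, 760.4 and 963 CPM in Han BB, 751, 914 and 825 in Han ++ and 891, 1198 and 1724 in Dorset. Its log2 fold change in Han vs. Dorset was -0.62 (SE 0.27, 95% interval -1.21 to -0.03, adjusted p = 0.786), and D6 was the highest library.

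The ratio of COL6A1 to COL6A2 reads was 1.51, 2.48 and 1.51 in Han BB, 1.78, 1.99 and 2.27 in Han ++ and 1.25, 1.49 and 0.932 in Dorset. Every Han ratio was above every Dorset ratio, although D5 was close to W1 and W4. This ratio was chosen for description because the chains assemble together and was given no test. A further suffixed COL6A2 row held 5 to 54 reads per library and was left out of the ratio. COL6A5 was read at 29.9 to 62.4 CPM and COL6A6 at 4.97 to 21.3 CPM, with overlapping groups in every comparison.

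Of the transmembrane collagens, COL13A1, which sits at cell adhesion sites, was read at 1.28, 2.52 and 7.16 CPM in Han BB, 2.67, 3.08 and 3.13 in Han ++ and 8.56, 3.70 and 24.9 in Dorset. The Han ++ values were narrow and below all Dorset values, and the Dorset mean was carried by D6. The log2 fold change was -2.07 in Han ++ vs. Dorset (SE 0.73, 95% interval -3.68 to -0.45, adjusted p = 0.836) and -1.92 in Han vs. Dorset (SE 0.59, adjusted p = 0.568). Without D6, these were -1.03 and -0.87. COL17A1, the hemidesmosome collagen of epithelia, was read at 1.61, 3.01 and 4.41 CPM in Han BB, 6.63, 5.20 and 5.80 in Han ++ and 7.30, 0.947 and 4.69 in Dorset, with Han ++ above Han BB. The surface epithelium markers KRT8, KRT18, KRT19, UPK3B and MSLN summed to 186 to 282 CPM in Han BB, 258 to 350 CPM in Han ++ and 116 to 294 CPM in Dorset. Mean CPM in Han ++ was above Han BB for KRT18 (60.9 beside 38.2), KRT19 (111 beside 84.8) and UPK3B (1.14 beside 0.559). KRT8 was nearly level (115 beside 108), and MSLN was lower in Han ++ (8.72 beside 9.31). The part of these markers in the COL17A1 values was not tested.

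COL7A1, the chain of the anchoring fibrils that tie epithelium to its stroma, was read at 9.64, 28.8 and 12.2 CPM in Han BB, 6.39, 18.0 and 60.2 in Han ++ and 11.4, 23.6 and 17.3 in Dorset. W8 was the highest and W6 the lowest library, and both are Han ++. COL28A1 was read at 5.13, 3.78 and 14.6 CPM in Han BB, 11.8, 6.88 and 4.24 in Han ++ and 2.72, 5.18 and 9.38 in Dorset. Of the network collagens, COL8A2, a chain of Descemet's membrane and vessel walls, had 26, 73 and 14 reads in Han BB, 25, 36 and 38 reads in Han ++ and 35, 41 and 33 reads in Dorset. COL10A1, the chain of hypertrophic cartilage, had 2, 17 and 1 reads in Han BB, 7, 1 and 11 reads in Han ++ and 0, 19 and 10 reads in Dorset, so both were low in all groups. The gene-number row of COL8A1, a short-chain collagen of vessel walls, was read at 45.7, 81.7 and 23.7 CPM in Han BB, 55.5, 81.1 and 104 in Han ++ and 66.7, 20.7 and 23.6 in Dorset.

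Genes that make, process or bind collagen were counted from lists set by function. None of the 30 modifying enzymes and chaperones, 17 fibril partners, 17 basement membrane partners or 8 receptors that were tested was called in any comparison. At an unadjusted p under 0.05, the numbers in this order of lists were 2, 0, 0 and 1 in Han BB vs. Dorset, 0, 1, 2 and 0 in Han ++ vs. Dorset, 1, 0, 0 and 0 in Han BB vs. Han ++ and 2, 1, 2 and 0 in Han vs. Dorset, beside 4.99%, 5.27%, 1.97% and 6.12% of all tested genes. TLL2, a tolloid-like proteinase of the family that cleaves procollagen C-propeptides, was read at 16.9, 27.9 and 22.5 CPM in Han BB, 44.8, 30.4 and 43.7 in Han ++ and 43.6, 65.4 and 37.7 in Dorset. Its Han BB values were below all others, with a log2 fold change of -1.12 in Han BB vs. Dorset (SE 0.31, adjusted p = 0.927). ADAMTS2, which removes procollagen N-propeptides, had a log2 fold change of -0.62 (SE 0.28, adjusted p = 0.975) in the same comparison.

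FN1, fibronectin, on which cells assemble collagen fibrils, was read at 2233, 5091 and 1904 CPM in Han BB, 3430, 4113 and 4588 in Han ++ and 2738, 1253 and 1386 in Dorset. Its log2 fold change in Han ++ vs. Dorset was 1.17 (SE 0.45, adjusted p = 0.891), and the Han ++ values were all above Dorset, as for COL4A1. NID2, a nidogen that links laminin to type IV collagen, was read at 152, 142 and 123 CPM in Han BB, 217, 179 and 155 in Han ++ and 109, 119 and 88.9 in Dorset. All Han values of NID2 were above all Dorset values, with a log2 fold change of 0.80 in Han ++ vs. Dorset (SE 0.26, adjusted p = 0.760). LAMB3, a laminin chain of epithelial basement membranes, had a log2 fold change of -0.87 in that comparison (SE 0.32, adjusted p = 0.874), and DDR1, a collagen-binding receptor kinase, one of -0.70 in Han BB vs. Dorset (SE 0.31, adjusted p = 0.975). TNXB, a tenascin that spaces fibrils, had -0.98 in Han BB vs. Dorset (SE 0.46), and ITGA2, the alpha 2 integrin chain that binds collagen, 0.65 in Han ++ vs. Dorset (SE 0.35).

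For 5 of the 37 members (13.5%, beside 35.8% of all tested genes) W4 and D6 both lay outside the range of the other 7 libraries. COL1A1, COL2A1, COL4A2 and COL18A1 were lower in these 2 libraries and COL21A1 was higher. For COL2A1 this rested on few reads, with 0 in W4 and 1 in D6 beside 5 each in W1 and W7. The fibroblast stroma markers PDGFRA, PDGFRB, DCN, LUM and TCF21, which mark the cells that make much of the fibrillar collagen, summed to 5360, 5110 and 3308 CPM in Han BB, 4037, 4003 and 3916 in Han ++ and 5356, 4281 and 3486 in Dorset, and W4 and D6 had the lowest sums. DCN, the largest member, was lowest in these 2 libraries (991 and 1024 CPM), while PDGFRA was highest there (1369 and 1284 CPM). The part of these markers in the COL1A1 values was not tested.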

How the data were processed

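The authors aligned paired reads to Oar_v3.1 with TopHat, retained reads that mapped uniquely and deposited unnormalized counts for every gene in each library. How reads were counted, and with which strand setting, is not stated in the sources read for this work, so overlapping and near-identical genes are uncertain. The methods and labels name different library kits. From the deposited counts, edgeR 4.0.16 in R 4.3.3 was run (quasi-likelihood F-test, TMM, filter on low counts by group, all 9 libraries, group as the only factor), with Benjamini-Hochberg adjustment over 16871 tested rows. DESeq2 1.42.0 and limma 3.58.1 were alternatives, beside other filters, 2-group fits and leaving out each library. Figures used matplotlib 3.10.9 in Python 3.11.15. The test was checked on simulated counts. Libraries are from separate ewes, and the biological coefficient of variation was 0.472.

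The collagen genes and the gene lists were chosen with earlier results of these data known. Per-library values are given for the 2 genes with the highest CPM in each class, the 3 with the smallest p in each comparison and chains that assemble together. From each partner list the 2 genes with the smallest p are named. Other genes were chosen after their values were seen. A RefSeq table of ARS-UI_Ramb_v3.0, a different assembly, gave names for gene-number rows and neighbours only.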

Additional observations from a re-analysis of the deposited data

How the results depend on the processing

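No collagen gene was called under any alternative run: DESeq2's size factors in edgeR, DESeq2, limma voom with quality weights, no filter, a minimum of 1 CPM in 3 libraries, fits of the compared groups, a term for W4 and D6, leaving both out, and leaving out each library. Over the fits without 1 library, the median log2 fold change of the collagen genes was -0.48 to -0.13 in Han BB vs. Dorset, -0.10 to 0.06 in Han ++ vs. Dorset (0.06 without D4), -0.48 to -0.09 in Han BB vs. Han ++ (-0.48 without W2, -0.09 without W1) and -0.22 to -0.02 in Han vs. Dorset. COL13A1 in Han BB vs. Dorset was -0.70 without D6 and -2.74 without W4, beside -1.77. COL9A3 in Han vs. Dorset was -0.64 without D5, beside -1.04, and in Han BB vs. Han ++ it was -1.23 without W1 and -0.53 without W4, beside -0.80. Without W4 and D6, chosen after seeing the data, the groups did not overlap for 10 members in Han BB vs. Dorset (27.0%, all genes 33.8%), 9 in Han ++ vs. Dorset (24.3%, all genes 24.4%), 12 in Han BB vs. Han ++ (32.4%, all genes 27.8%) and 5 in Han vs. Dorset (13.5%, all genes 14.7%), where smaller groups separate more easily. No paired analysis was possible because the groups were separate ewes and no label pairs ewes of different groups. With 3 ewes per group, the spread between ewes limits all folds.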
